A study of Coturnix japonica with 54 samples.

Results

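The genes described here are the 62 whose level in the mediobasal hypothalamus of male Japanese quail (Coturnix japonica) ran up or down with the order in which the birds were sampled. They were chosen by their values in the deposited CPM table (counts scaled to a library total of 1000000). A gene was eligible with a symbol that does not start with LOC or FABP and a mean of at least 20 CPM over 53 libraries, and it was a member when Spearman's rho of its CPM with step number was at least 0.35 in size. The table held 19916 genes, and 3843 of them were eligible. Of these, 7 had a positive rho (0.182%) and are called rising genes, and 55 had a negative rho (1.43%) and are called falling genes. Both names stand for the sign of rho only, and since rho chose the genes it is given without a test.

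The birds, 54 males, began under 16 h of light and were taken through shortening and then lengthening days, with 2 weeks at each of 9 steps and 6 birds sampled as individuals at the end of each. In order of step the declining arm comprised 16La, 14La, 12La and 10La, the turning point was 8L, and the rising arm comprised 10Lv, 12Lv, 14Lv and 16Lv, where the number is the hours of light and the letters a and v were read as the arms. All groups share the same start under long days, and each later group also carries the steps before it. The labels name no drug, genotype, age or batch, and the design text says that birds were picked for sampling with the help of body mass and that brain and pituitary stalk were dissected. Step number, age of the bird, time in the study and arm of the cycle therefore run together and cannot be told apart here, whereas hours of light go down and up again and are almost uncorrelated with step (r = -0.041).

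In quail and other birds of temperate zones the mediobasal hypothalamus holds the switch between the non-breeding and the breeding state. Long days raise thyrotropin in the pars tuberalis of the pituitary stalk, and this acts on tanycytes, the glia that line the third ventricle, to raise local thyroid hormone and so the release of gonadotropin-releasing hormone. A gene that follows day length through the cycle returns near its starting level at the end, and a gene that follows elapsed time does not, which is what the step number picks out.

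The CPM table held between 251382 and 1895615 recovered reads in a library, with a median of 938816. In each of the 9 groups 1 library stood apart with 251382 to 379260 reads, and the other libraries had at least 626001. A mean of 20 CPM is 18.8 reads at the median depth and 5.03 reads in the shallowest library, so single values of low genes are coarse. The relation of depth with step did not pass the test (Pearson r = -0.107, Spearman rho = -0.103, n = 53, permutation p = 0.45 and 0.459, adjusted over 11 relations 0.63 and 0.686, and r = -0.127 without the 2 libraries farthest from the median). Between replicates 3 and 6 of 16Lv the difference was below sampling noise, so they were counted as 1 sample and n is 5 for 16Lv in this table. The summed level of 16 neuron markers was 22431 to 55816 CPM over the libraries, and markers of endothelium summed to at most 73.4 CPM. The neuron sum was mostly MAP2 (mean 33110 CPM), with ELAVL4 at 2716 CPM and SNAP25 at 200 CPM. Of the pituitary markers PRL was at 0 in 31 of 53 libraries, PITX1 in 38, POU1F1 in 43, TSHB in 46, GH in 49 and FSHB in 52. CGA (mean 142.8 CPM) and POMC (28.7 CPM) of the same list were at 0 in 0 libraries. RAX, which defines tanycytes, was at 0 in 47 libraries, but VIM (mean 62.1 CPM) and CRYM (14.7 CPM) of its list in 0.

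The rule asks how many genes pass when the step numbers are dealt at random over the libraries. In 100 such shuffles the rising count had a median of 15 (lowest 1, highest 90) and the falling count a median of 15 (lowest 0, highest 200). The 7 rising genes were thus fewer than in most shuffles, since 87 of 100 held at least as many. That count rests on few libraries, with 11 rising genes without 16La replicate 2, 12 without 16Lv replicate 2 and 22 without the shallowest library of each group. The 55 falling genes were more than in most, with at least as many in 7 of 100 shuffles. Over both directions 62 genes stood against a median of 34.5 (13 to 224), with at least as many in 11 of 100. The counts varied widely from shuffle to shuffle, and they are given as a description with no p. Over all eligible genes the median rho was -0.0398 and 61.8% were negative. When CPM were rescaled by TMM factors the median rho was -0.0075 with 52.1% negative, and the members numbered 16 rising and 39 falling (29.1% rising, against 11.3% rising with CPM of the library total); 6 of the 7 rising and 34 of the 55 falling genes were members under both scalings.

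TSPAN2, which encodes a tetraspanin of myelinating oligodendrocytes, had the largest rho of all eligible genes (-0.69). On the declining arm the lowest, median and highest values were 143, 216 and 603 CPM in 16La, 141, 186 and 315 in 14La, 97.8, 150 and 206 in 12La, and 145, 175 and 240 in 10La. The turning point 8L had 79.9, 139 and 196 CPM. On the rising arm they were 68.4, 119 and 151 CPM in 10Lv, 73.8, 106 and 159 in 12Lv, and 68.2, 111 and 147 in 14Lv, and the 5 libraries of 16Lv had 60.4, 76.8, 84.7, 104 and 125 CPM. Every library of 16Lv lay below every library of 16La, and each group median was below that of the step before, except at 10La and 14Lv. TSPAN2 averaged 90.2 ± 24.9 CPM in 16Lv (SD, n = 5) and 262 ± 170 CPM in 16La (SD, n = 6), where 1 library held 603 CPM and the next 228. The median of 16Lv was 60.8% lower than that of 16La, and 58.9% of that difference had been reached at 8L. The slope in the linear fit was -0.15 log2 units per step (SE 0.02). Limma called 2 of 8268 genes for that slope over the table (0.0242%), TSPAN2 (limma adjusted p = 0.000285) and FABP9, which the rule leaves out by name; as this is the contrast that chose the members, nothing is read from it.

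**Figure D1:**
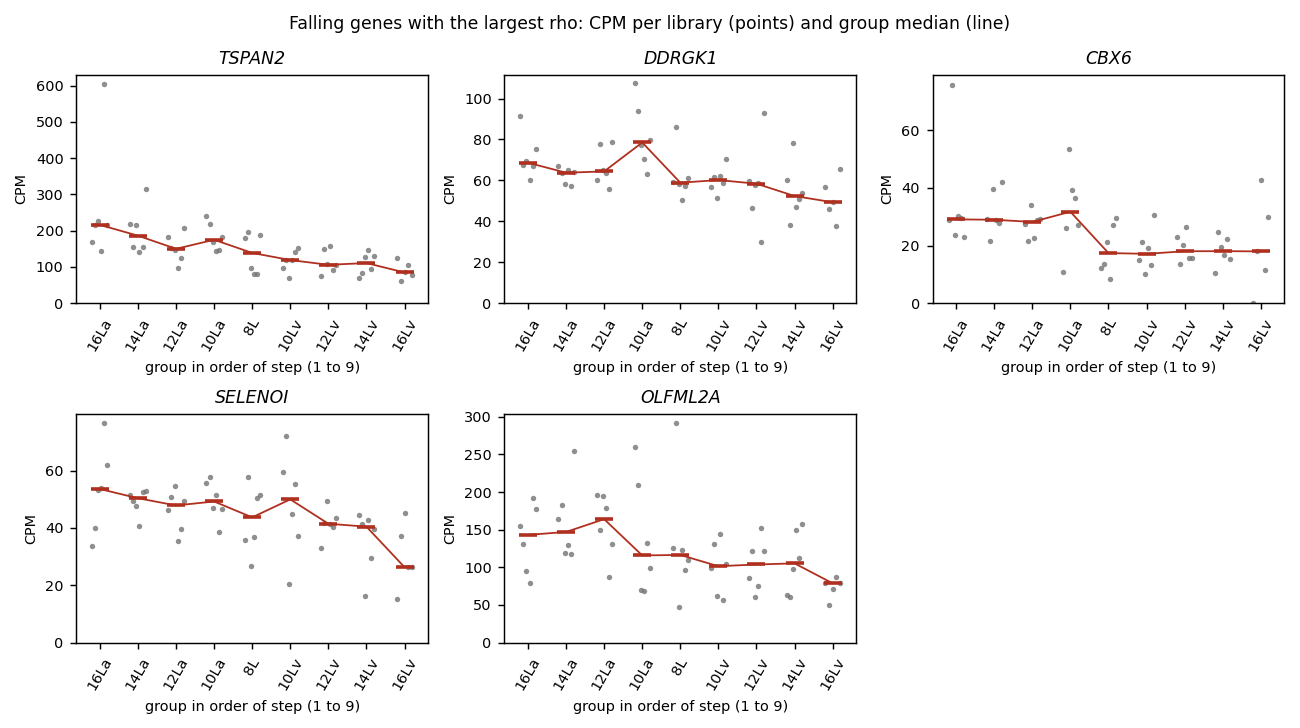
CPM (y axis, linear from 0) against group in order of step (x axis) for the 5 falling genes with the largest rho. Grey points are single libraries and the red line joins group medians: the medians of TSPAN2 step down over the whole cycle to 84.7 CPM in 16Lv, while those of CBX6 are 31.7 CPM in 10La and 17.4 CPM in 8L and stay near that level.

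The other falling genes with the largest rho took different courses to a low end. DDRGK1 anchors the UFM1 protein-modifying machinery to the endoplasmic reticulum. Its medians were 68.6, 63.8, 64.4, 78.5, 58.9, 60.2, 58.4, 52.4 and 49.3 CPM from 16La to 16Lv (rho -0.52), with 37.96, 46.2, 49.3, 56.7 and 65.5 CPM in the libraries of 16Lv against a range of 60.3 to 91.2 in 16La. It averaged 51.1 ± 10.46 CPM in 16Lv (SD, n = 5) and 71.9 ± 10.62 in 16La (SD, n = 6), and the groups overlapped at 1 library of each. CBX6 is a chromobox protein of the Polycomb repressive complex. Its medians were 29.1, 28.97, 28.2 and 31.7 CPM on the declining arm, 17.4 at 8L, and 17.1, 18.03, 18.07 and 17.98 on the rising arm (rho -0.50). Within the 5 groups from 8L onward its rho was 0.05, against -0.36 within the first 5, which end with the low group 8L. Its 5 libraries of 16Lv, at 0, 11.7, 17.98, 29.9 and 42.9 CPM, overlapped those of 16La (23.02 to 75.6 CPM), and both the 0 and the 75.6 came from the shallowest library of their group.

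SELENOI makes phosphatidylethanolamine in the endoplasmic reticulum. Its medians were 53.6, 50.3, 47.8, 49.2, 43.7, 49.95, 41.5, 40.4 and 26.3 CPM from 16La to 16Lv (rho -0.48). The libraries of 16Lv had 15.1, 26.2, 26.3, 37.2 and 45.04 CPM, against 33.7 to 76.7 in 16La, so the lower end was reached at the last step and the end groups overlapped. OLFML2A, a secreted protein of the extracellular matrix, had medians of 143, 147, 164, 116, 116, 101.4, 104, 105 and 78.7 CPM (rho -0.48). Its libraries of 16Lv held 50.1, 70.8, 78.7, 79.4 and 87.6 CPM, a narrow group beside 79.4 to 192 in 16La, and the highest value of all, 292 CPM, lay in 8L. For these 4 genes the median of 16Lv was 28.1% (DDRGK1), 38.2% (CBX6), 50.9% (SELENOI) and 44.99% (OLFML2A) below that of 16La.

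The next 15 falling genes had rho between -0.45 and -0.40 and are taken by what they are known to do; this order by role was made after the values were seen. Among genes of membranes and transport, SLC16A7, the monocarboxylate transporter of neurons, had a median of 50.5 CPM in 16Lv and 87.4 in 16La, LSAMP, an adhesion protein of the limbic system, had 917 in 16Lv and 1297 in 16La, and SLC44A5, a choline transporter-like protein, had 30.2 in 16Lv and 55.004 in 16La. PARM1, a mucin-like membrane protein, had 24.4 CPM in 16Lv and 30.7 in 16La, and KIAA1549, a membrane protein, had 27.25 in 16Lv and 53.6 in 16La with no overlap of the 2 groups. EPB41L2, of the membrane skeleton, had 1127 CPM in 16Lv and 1314 in 16La. All of these had a lower median in 16Lv, by 14.3% to 49.2%.

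Among genes of the endoplasmic reticulum, the Golgi apparatus and lysosomes, PSAP encodes the precursor of the saposins, which help to break down sphingolipids in lysosomes. Its libraries of 16Lv held 11213, 11313, 14116, 15626 and 17592 CPM, against a lowest, median and highest of 15698, 17605 and 26235 in 16La. RRBP1, a ribosome-binding protein of the endoplasmic reticulum, had a median of 1410 CPM in 16Lv and 1779 in 16La, and ST3GAL3, which adds sialic acid to glycoproteins and glycolipids, had 93.4 in 16Lv and 148 in 16La.

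Among genes of signalling, NIM1K, a protein kinase related to AMPK, had a median of 69.1 CPM in 16Lv and 89.2 in 16La, and TIRAP, an adaptor of Toll-like receptors, had 38.5 in 16Lv and 75.5 in 16La. CDIP1, a mediator of cell death downstream of p53, had 68.6 CPM in 16Lv and 148 in 16La. Among genes of chromatin and transcription, DOT1L, a histone methyltransferase, had 8.99 CPM in 16Lv and 36.1 in 16La, with 0 in 6 of the 53 libraries, and ZNF438, a zinc finger protein, had 220 in 16Lv and 339 in 16La. MAPT encodes tau, the microtubule-associated protein of axons, and had its highest group median at the turning point. Its median was 292 CPM in 16La, 377 in 8L and 209 in 16Lv, where the libraries held 18.9, 51.6, 209, 223 and 268 CPM. Its rho was 0.06 over the first 5 groups and -0.55 over the last 5.

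Some members below these ranks differed more between the ends or belong to lists of interest. CLSTN2, a calsyntenin of synapses, had the lowest ratio of medians, with 12.9 CPM in 16Lv and 78.6 in 16La, yet its libraries of 16Lv ranged from 8.76 to 85.97 CPM and overlapped those of 16La (47.7 to 95.6). ATP11B, a flippase of membrane lipids, had medians of 153 CPM in 16La, 155 in 8L and 56.5 in 16Lv. TCF7L2, the transcription factor at the end of Wnt signalling, had 2633 CPM in 16La, 2658 in 8L and 1355 in 16Lv, and AQP4, the water channel of astrocyte endfeet, had 36.6 in 16La, 40.4 in 8L and 23.1 in 16Lv. These last 3 genes were thus as high on the shortest day as at the start, and were low late on the rising arm. HMGCS1 makes the precursor of mevalonate for cholesterol. It had 34.0, 49.3, 52.7, 63.3 and 71.1 CPM in the libraries of 16Lv, all below the lowest of 16La (73.2 CPM, median 89.4, highest 158). DYNC1I2, an intermediate chain of the dynein motor, likewise had 20.5, 21.4, 26.4, 30.3 and 36.5 CPM in 16Lv and 37.7 to 53.1 in 16La.

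Over all 55 falling genes the median of 16Lv was below that of 16La in 55, at a median ratio of 0.651 (0.164 to 0.906), against 0.937 over the 3843 eligible genes. At 14 h the rising-arm median was lower than the declining-arm one in 54 genes (median ratio 0.76, against 0.962 over eligible genes), at 12 h in 46 (0.799, against 0.986) and at 10 h in 40 (0.923, against 1.03). The gap between the arms at equal day length was thus larger the farther apart in time the 2 groups had been sampled, as a rho with step makes it. The lowest of the 9 group medians lay in 12Lv, 14Lv or 16Lv in 49 of 55 genes, and the highest in 16La, 14La or 12La in 40. Relative to 16La the median log2 level of the falling genes was -0.13 in 14La, -0.11 in 12La, -0.14 in 10La, -0.26 in 8L, -0.24 in 10Lv, -0.44 in 12Lv, -0.54 in 14Lv and -0.61 in 16Lv. More of the difference therefore lay after 10Lv than before it. In 43 of 55 genes the correlation with step was negative in both the first 5 and the last 5 groups, which share 8L. In 4 of 55, namely TSPAN2, KIAA1549, DYNC1I2 and HMGCS1, all libraries of 16Lv lay below all of 16La, and 11 of the 3843 eligible genes did so (0.286%). These values come from the contrast that chose the genes and describe them only.

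**Figure D2:**
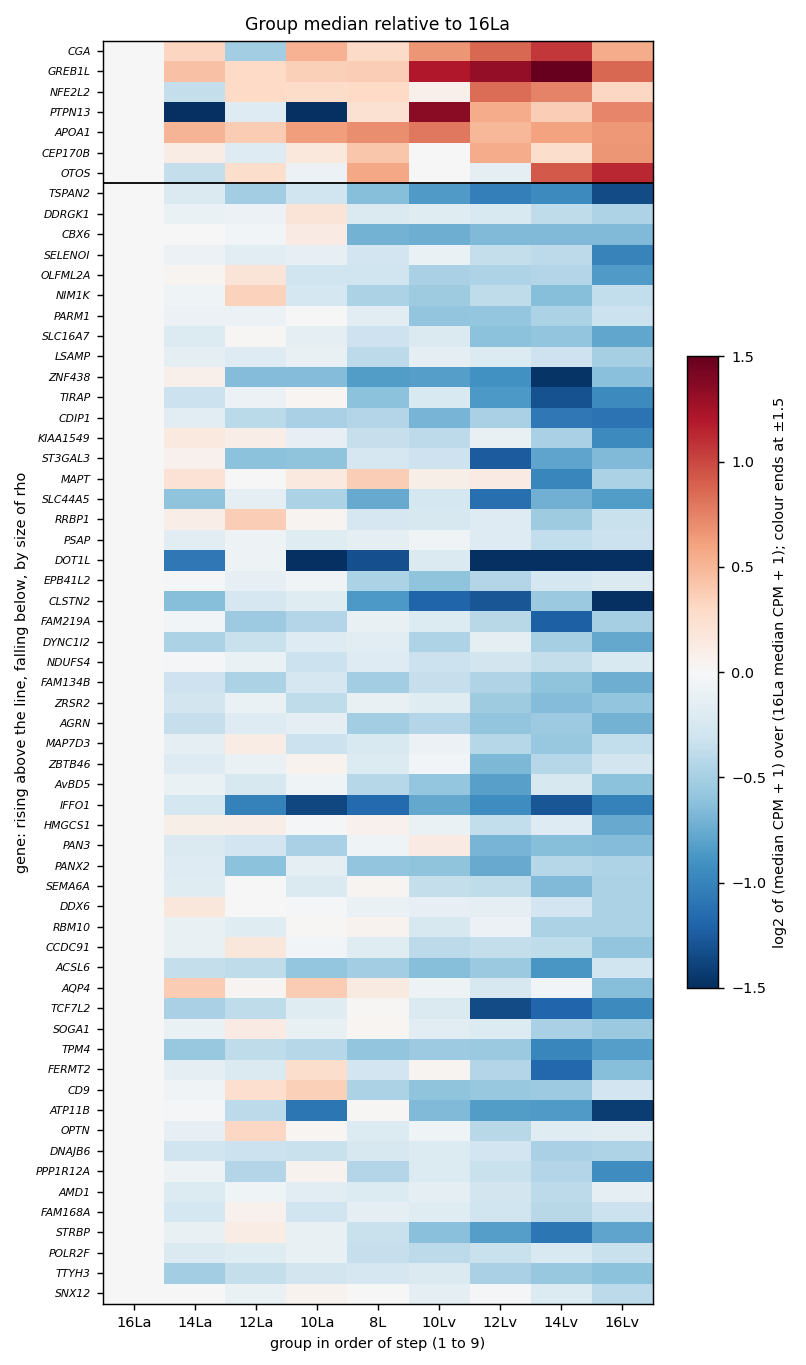
Group median of each of the 62 genes (rows, rising above the black line, falling below, by size of rho) in order of step (columns), as log2 of (median CPM + 1) over (16La median CPM + 1), with colours ending at ±1.5. Blue deepens towards 14Lv and 16Lv in most falling genes, with a median of -0.61 in 16Lv, while the 7 rising genes differ from each other in where they turn red.

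The 7 rising genes were more scattered. CGA encodes the alpha subunit shared by thyrotropin and the gonadotropins and had the largest positive rho (0.50). Its lowest, median and highest values were 35.4, 102.7 and 167 CPM in 16La, 43.1, 129 and 195 in 14La, 14.1, 71.0 and 158 in 12La, and 74.5, 148 and 167 in 10La. They were 59.2, 125 and 236 CPM in 8L, 18.7, 163 and 281 in 10Lv, 116, 188 and 272 in 12Lv, and 172, 215 and 316 in 14Lv, and the libraries of 16Lv held 83.2, 144, 151, 175 and 237 CPM. All libraries of 14Lv were above the highest of 16La. These groups differ in day length, and how many eligible genes do the same was not counted. The groups 16Lv and 16La overlapped, with 158 ± 55.4 CPM in 16Lv (SD, n = 5) and 100 ± 43.5 in 16La (SD, n = 6). The other 7 pituitary markers summed to 15.1 to 33.1 CPM in 16Lv and 5.25 to 27.2 in 16La, and their highest group median was 42.5 CPM in 10Lv. POMC, the precursor of corticotropin and melanocortins, which hypothalamic neurons also make, held 91.6% of the mean sum, and the other 6 markers had a mean of 2.62 CPM together. That sum had r = 0.311 with step (Spearman rho 0.259, n = 53, permutation p = 0.0233 and 0.0611, adjusted over 11 relations 0.128 and 0.336, and r = 0.28 without the 2 farthest libraries). Given the sum, the partial rho of CGA was 0.46, which describes it only, as rho with step chose CGA. The sum thus follows POMC, and the part of pituitary tissue in the course of CGA was not tested.

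GREB1L, known from kidney and inner ear development in mammals, had medians of 23.2, 31.8, 28.7, 30.004, 30.2, 54.4, 59.5, 70.2 and 42.8 CPM from 16La to 16Lv (rho 0.42). Its libraries of 16Lv held 0, 41.6, 42.8, 68.1 and 86.7 CPM and those of 16La 0 to 87.5, so the end groups overlapped over their whole range and the higher values lay in 10Lv to 14Lv. NFE2L2, the transcription factor of the response to oxidative stress, had medians of 37.8, 29.3, 46.9, 46.0, 46.5, 39.95, 68.4, 63.8 and 47.2 CPM (rho 0.42). Its libraries of 16Lv held 41.6, 43.1, 47.2, 56.5 and 96.4 CPM, within the range of 16La from 0 to 69.9 but for the last. In 4 of the 9 groups the highest NFE2L2 value was that of the shallowest library, against a mean of 2.08 groups over eligible genes.

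PTPN13, a protein tyrosine phosphatase, had medians of 17.9, 3.35, 15.5, 4.67, 21.1, 47.3, 26.8, 23.25 and 30.2 CPM (rho 0.40), with 10.3, 15.6, 30.2, 42.9 and 55.3 CPM in 16Lv and 3.70 to 63.6 in 16La. It was low in 14La and 10La and highest in 10Lv rather than at the end. APOA1, the main apolipoprotein of high-density lipoprotein, had medians of 694, 989, 903, 1075, 1122, 1200, 983, 1056 and 1089 CPM (rho 0.39). It averaged 1093 ± 257 CPM in 16Lv (SD, n = 5) and 695 ± 122 in 16La (SD, n = 6), with libraries of 695, 1087, 1089, 1190 and 1403 CPM in 16Lv and 558 to 850 in 16La. All of its difference in medians had been reached by 8L (108%), and its rho was 0.49 over the first 5 groups and 0.004 over the last 5. CEP170B, a microtubule-associated protein, had a median of 474 CPM in 16Lv and 299 in 16La (rho 0.3535), and OTOS, otospiralin of the mammalian inner ear, had 96.2 in 16Lv and 43.3 in 16La (rho 0.3524).

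**Figure D3:**
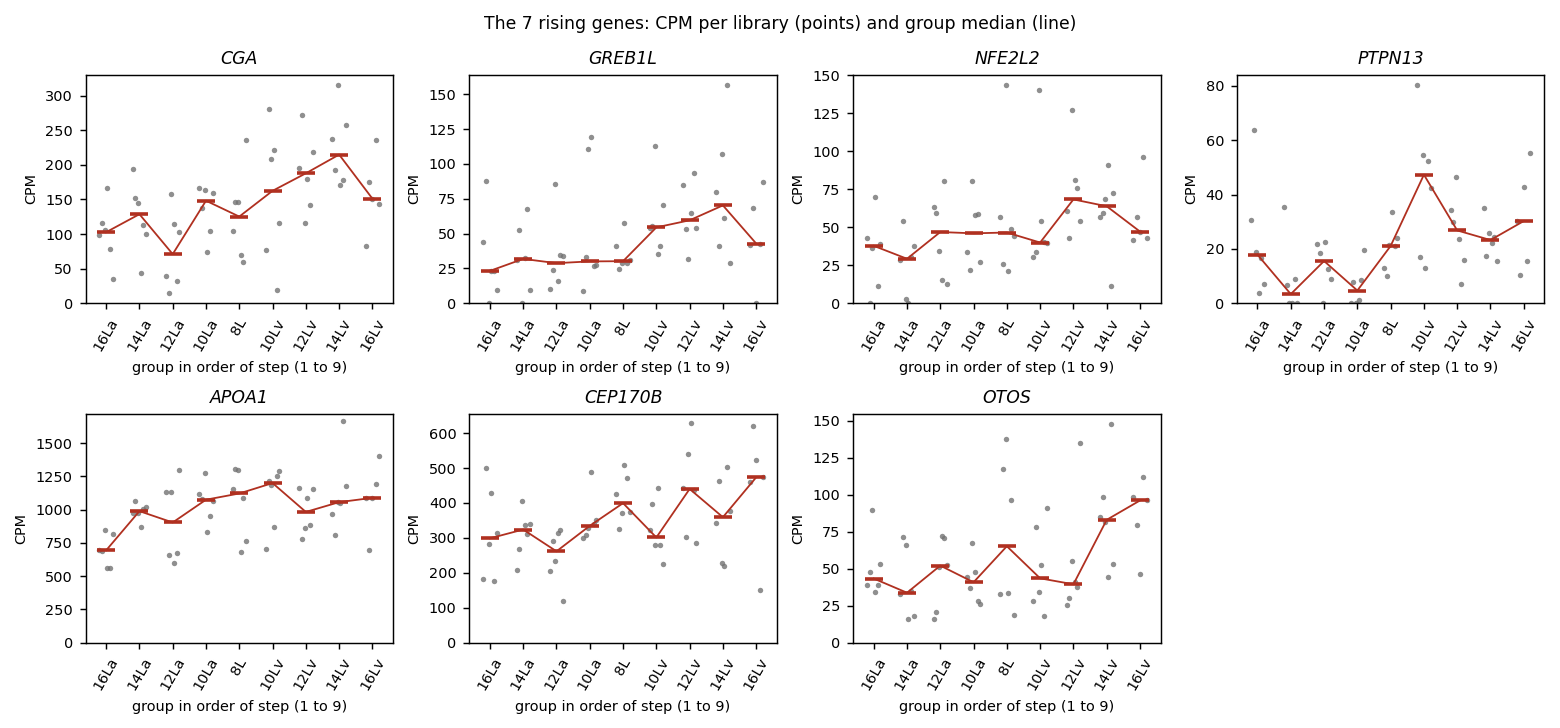
CPM (y axis, linear from 0) against group in order of step (x axis) for the 7 rising genes, with libraries as grey points and group medians joined by the red line. Most genes peak before the end, CGA at 215 CPM in 14Lv and PTPN13 at 47.3 CPM in 10Lv, and single libraries overlap between early and late groups.

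The 7 rising genes had a median ratio of 16Lv over 16La of 1.59 (1.25 to 2.22). In 0 of 7 did the libraries of 16Lv all lie above those of 16La, as in 3 of the 3843 eligible genes (0.0781%). All 7 had a positive rho in the first 5 and in the last 5 groups, which share the turning point. That of APOA1 in the last 5 was 0.004. The genes were chosen by a positive rho over the same libraries, so these values describe them only. The threshold cut through a continuum. OTOS, CEP170B and APOA1 (0.39) were the last genes inside on the rising side, and LRRTM4 (0.3452), ARHGAP1 (0.3428) and DAAM1 (0.3347) the first outside. On the falling side SNX12 (-0.3509), TTYH3 and POLR2F (both -0.3544) were just inside, and FOXP2 and SCAPER (both -0.3498) and TEX11 (-0.3492) just outside.

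Day length is not the contrast that chose the members. Variation with hours of light, or other departures from a steady course, can still lower the size of rho with step. The choice of members therefore bears on this test and on the next. In a linear fit with step number, limma called 0 of 8268 genes for the slope on hours of light (0%), and so 0 of the 62 members, all of which were tested. At an unadjusted p under 0.05 were 440 genes, 2 of them members. edgeR and DESeq2 on the recovered reads called 1 and 2 genes, none a member, and limma-voom called 0. IFFO1, a relative of the intermediate filament proteins, was the member with the smallest p, with 0.19 log2 units per hour of light (SE 0.07, limma adjusted p = 0.853). Its medians were 79.2 CPM in 16La, 34.6 in 8L and 38.6 in 16Lv. MAPT had -0.09 per hour (SE 0.04, limma adjusted p = 0.908) and TCF7L2 -0.06 (SE 0.03, limma adjusted p = 0.918), both with their highest group median in 8L. TSPAN2 had 0.02 per hour (SE 0.02) and CGA 0.03 (SE 0.04). The slopes on hours of the 55 falling genes ran from -0.09 to 0.19 (median 0.01) and those of the 7 rising genes from -0.11 to 0.06 (median -0.01), against a median of -0.002 over all genes tested.

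**Figure D4:**
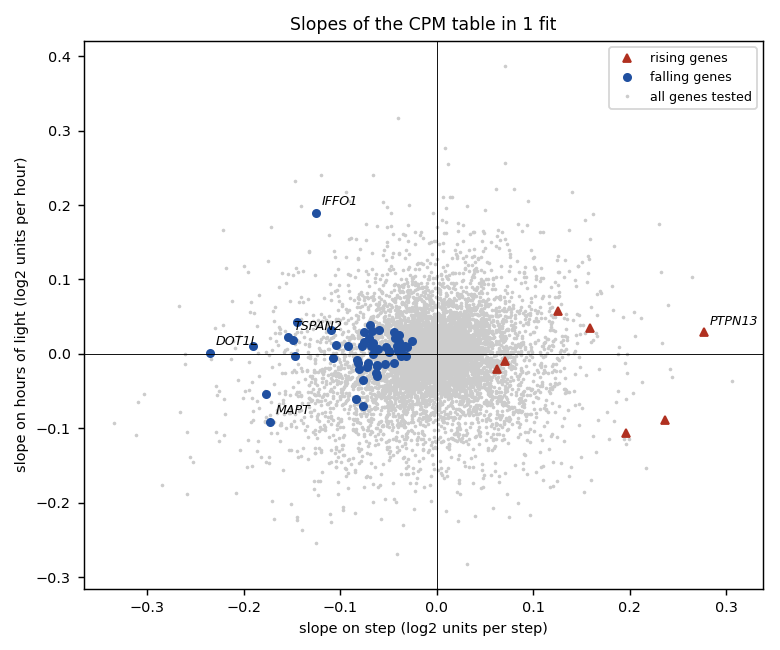
Slope on step (x axis, log2 units per step) against slope on hours of light (y axis, log2 units per hour) from the same fit, with rising genes as red triangles, falling genes as blue circles and all 8268 genes tested in grey. The members lie to the sides by their choice, and their slopes on hours, from -0.11 to 0.19, fall inside the grey cloud.

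A second test asked whether a member's group means left the 2 straight lines on step and hours, as a jump at single steps would. Limma called 1 of 8268 genes (0.0121%), KIFC2, and 0 of the 62 members; 280 genes and 3 members were at an unadjusted p under 0.05, and edgeR on the recovered reads called 2 genes, none a member. The 3 members were PTPN13, with its high 10Lv and low 14La and 10La, DOT1L and FAM219A, each at a limma adjusted p of 0.999. A p above the threshold does not show that these genes followed straight lines.

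The count table, a second deposited table under the same library names with estimated counts per transcript, was not used to choose the members. Its levels of single genes differed from those of the CPM table, as given below for CGA and PSAP. It is also far shallower, with 4834 to 156500 counts per library (median 39688). It held 59 of the 62 members, and 14 of them, those with enough counts, were among the 826 genes tested; TSPAN2 had 26 counts in all and was not. edgeR called 0 of 826 genes for the slope on step (0%), with 37 genes and 3 members at an unadjusted p under 0.05. The slope had the sign of the CPM table in 10 of the 14, in 7 of 9 falling and 3 of 5 rising genes. Of the 826 genes tested 542 had a negative slope. Depth of the count table was lower late in the cycle. Group totals spanned 319073 to 439934 counts over the declining arm, with 247636 at the turning point. Over the rising arm they spanned 162095 to 232851. The part of this depth in the slopes on step was not tested. OPTN, a receptor of selective autophagy, had -0.24 log2 units per step (SE 0.10, edgeR adjusted p = 0.95), and PPP1R12A, the targeting subunit of myosin phosphatase, had -0.28 (SE 0.13, edgeR adjusted p = 0.976). NFE2L2, a rising gene in the CPM table, had a slope of the opposite sign there (-0.29, SE 0.10, edgeR adjusted p = 0.587), and so did CEP170B (-0.16, SE 0.13, edgeR adjusted p = 0.993). Limma-voom called 1 member, OPTN (adjusted p = 0.0431), of 2 genes called; DESeq2 called 0. OPTN had 122, 78, 90, 83, 62, 0, 6, 44 and 12 counts from 16La to 16Lv, of group totals of 436462 in 16La, 167492 in 10Lv, 232851 in 14Lv and 162095 in 16Lv. It was thus at 0 in 10Lv and higher again in 14Lv, and the 12 counts of 16Lv all lay in 1 library.

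CGA was the best measured member of the count table, with 12442 counts. Its median there was 5782, 7360, 917, 1269, 1310, 2994, 6363, 6011 and 4320 CPM of that table's totals from 16La to 16Lv, a course that went down and up with day length. The slope on step was 0.06 (SE 0.05, edgeR adjusted p = 0.993), whereas CGA was among 3 of 826 genes called for the slope on hours (0.363%), at 0.30 log2 units per hour (SE 0.06, edgeR adjusted p = 0.00138). It was also among 3 called for leaving the lines (0.363%, edgeR adjusted p = 6.35e-07). In the CPM table CGA had 0.16 per step (SE 0.05). The 2 tables thus gave CGA different courses over libraries of the same names. Depth need not match between them. In 12La replicate 3 had the fewest recovered reads (292120) and the most counts (156500), and replicate 5 the reverse (1895615 and 15174). In 16Lv replicate 1 had the fewest of both (264494 and 4834). Whether a name stands for the same bird and the same tissue in both tables was not tested. Levels differed too, with a mean of 143 CPM for CGA in the CPM table. PSAP had a mean of 16295 CPM there and group medians of 148 to 324 CPM in the count table. For DYNC1I2 these were 36.0 and 88.4 to 457 CPM, and for EPB41L2, which was closer, 1122 and 200 to 878 CPM. The reason was not tested.

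**Figure D5:**
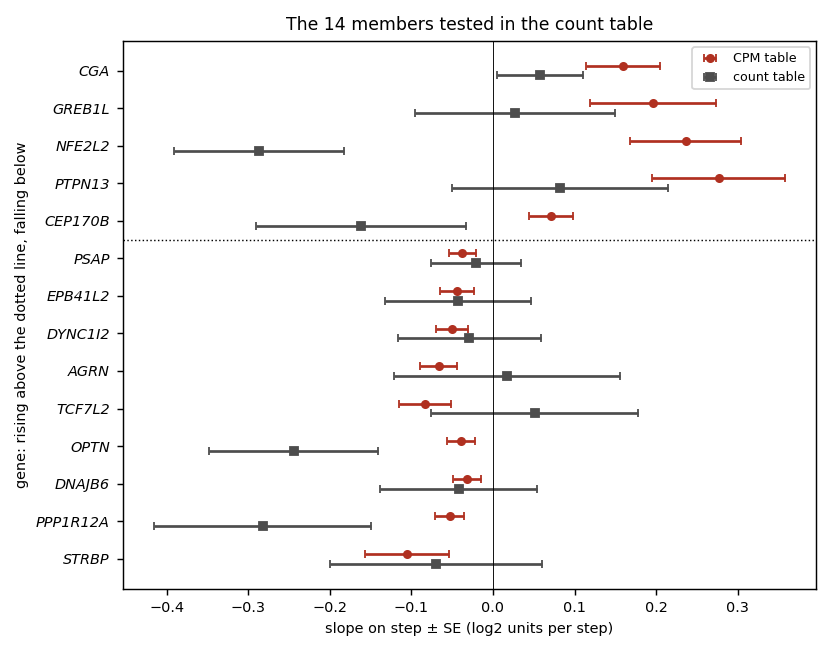
Slope on step with its SE (x axis, log2 units per step) for the 14 members tested in the count table, rising genes above the dotted line and falling genes below, in the CPM table (red circles) and the count table (grey squares). NFE2L2, CEP170B, AGRN and TCF7L2 have slopes of opposite sign in the tables, and the SE of the count table is wider for each gene.

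The falling gene with the largest rho is also a marker of oligodendrocytes, the myelin-forming glia, and the values of the other markers of that type are given beside it. The sum of the 15 markers other than TSPAN2, mostly MBP, had a lowest, median and highest of 6315, 8971 and 11576 CPM in 16La and of 4763, 6364 and 8754 in 8L, and a median of 6216 CPM in 16Lv (5154 to 10554). Its Pearson r with step was -0.37 and its Spearman rho -0.346 (n = 53, permutation p = 0.00672 and 0.0116, adjusted over 11 relations 0.0739 and 0.127), with r = -0.314 without the 2 libraries farthest from the median. Of the 16 markers measured, MAL was at 0 in 52 of 53 libraries and MOG in 46. Of the 6 eligible ones 5, TSPAN2 included, had a negative rho (median -0.261, and -0.254 with TMM scaling). The share with a negative rho over all eligible genes was 61.8%, and 52.1% with TMM scaling. Fewer cells of a type and less RNA per cell cannot be told apart in such bulk samples. With the marker sum held constant, the partial rho of TSPAN2 with step was -0.63, and it was negative in all 55 falling genes. Within groups TSPAN2 had r = 0.336 with the sum over 53 libraries, and 20 of the 55 falling genes had a positive r with it. The median r with the sum was -0.0628 in the falling genes and -0.0396 over all eligible genes. With the sum held constant 43 genes were falling members and 29 of them were among the 55. Rising members then numbered 16, with 5 among the 7. These counts and the partial rho come from the contrast that chose the members and describe them only. The part of oligodendrocyte content in their course was not tested. The other marker sums, of astrocytes and tanycytes, microglia, endothelium, mural cells, erythrocytes, ependyma, neurons and oligodendrocyte precursors, had r with step between -0.0994 and 0.144.

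Members that share a course with step need not vary together between birds of a group. Within groups, after group means were taken out of log2 CPM, the 1485 pairs of falling genes had a median r of 0.0761 (5th to 95th percentile -0.212 to 0.403), against 0.0181 (-0.278 to 0.343) over all pairs of eligible genes. The 21 pairs of rising genes had a median r of -0.003. The highest pairs were ST3GAL3 with ACSL6, which activates long-chain fatty acids in brain (0.711), and OLFML2A with FAM134B, a receptor for the turnover of endoplasmic reticulum (0.71). TSPAN2 varied most closely with ZBTB46, a zinc finger transcription factor (0.57), RRBP1 (0.552), FAM134B (0.549) and OLFML2A (0.478). The library 16La replicate 5, with the 603 CPM of TSPAN2, was also the highest of 16La for these 4 genes. Without it r was 0.468 for ZBTB46, 0.496 for RRBP1, 0.53 for FAM134B and 0.461 for OLFML2A. PSAP varied with SNX12, a sorting nexin (0.656), LSAMP (0.646) and DNAJB6 (0.62). All of these r are over the same 53 libraries, which share depth and scaling, and are descriptions.

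Of 32 lists of marker genes and pathways 4 had no eligible gene and so could not hold a member. A member was on 8 lists, and each of these held 1. Over all 3843 eligible genes 0.182% were rising and 1.43% falling members, so 1 gene on a list is not read as a trait of the members. They were TSPAN2 among 6 eligible oligodendrocyte markers, AQP4 among 10 of astrocytes and tanycytes, of which 3 had a negative rho (median 0.0285, and 2 and 0.0855 with TMM scaling), and CGA among 2 pituitary markers and 4 genes of the thyroid hormone pathway. HMGCS1 was 1 of 5 eligible genes of cholesterol synthesis and uptake, all 5 of which had a negative rho (median -0.181, and -0.152 with TMM scaling). Over all eligible genes 61.8% were negative, and 52.1% with TMM scaling. DNAJB6, a co-chaperone, was 1 of 17 chaperones, and its libraries of 16Lv held 447, 478, 581, 642 and 711 CPM beside a median of 802 in 16La (464 to 930). RBM10, a splicing regulator, was 1 of 43 splicing factors, with a median of 53.9 CPM in 16La, 56.01 in 8L and 38.5 in 16Lv. NDUFS4, a subunit of respiratory complex I, was 1 of 70 genes of oxidative phosphorylation, with a median of 82.6 CPM in 16Lv (49.6 to 98.3) and 97.1 in 16La (82.6 to 111). Limma called 0 of all 8268 genes for hours of light in the CPM table, and so none on any list. The members shared little in position, with 1 pair of neighbours in the quail annotation, HMGCS1 and NIM1K. A read was present in every library for 51 of the 62 genes.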

How the data were processed

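Libraries were nanopore cDNA from 54 birds, and both tables used were made by the authors. The deposited CPM table holds counts scaled by the authors to a library total of 1000000 (CPM). Its low values are whole multiples of the value of 1 read, which returned 99.73% to 100% whole reads per library (within 0.1 read). The second deposited table holds the authors' estimated counts (expected counts) as deposited, for 40282 transcripts of 16448 genes, of which 99.72% are whole; they were summed per gene and rounded to whole numbers. The submitters' processing notes list the tools minimap2 (2.17), Salmon (0.14.2) and edgeR (3.24.3). What each did, and on which genome build, is not given in the sources used here. Names in date form, 14 in the CPM table, were not used. Of 62 members 59 are named in the RefSeq annotation of Coturnix japonica 2.1, which was used for names and neighbours only.

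Replicates 3 and 6 of 16Lv had a chi-square per degree of freedom of 0.954, against 6.25 for the next closest of 135 pairs within groups, and were averaged.

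For the CPM table limma 3.58.1 (limma-trend) was fitted to TMM-scaled CPM on the scale log2(CPM + 1), a pseudocount of 1, over 8268 genes with at least 10 CPM in at least 6 libraries, on step number and hours of light, with a moderated F test of the 6 further columns that complete the 9 group means. Log2 slopes are on that scale and understate changes of low genes. For the count table edgeR 4.0.16 was used (TMM, quasi-likelihood F test, filterByExpr with a minimum count of 10, 826 genes). A call is an adjusted p (Benjamini-Hochberg, over all genes tested) under 0.05. DESeq2 1.42.0 and limma-voom were alternatives (R 4.3.3). The fits were tested on simulated data with planted slopes larger than those the main fits gave for the members. They therefore do not show whether slopes as small as those of the members would be called. Marker sums leave the members out, and their relations with step used permutation tests (100000 resamples, two-sided). P-values measure the spread between single birds, and their number limits the precision.

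The members, gene lists and tests were chosen with earlier results of these data known. Named were the 5 genes per direction with the largest rho, the next 15, members on a list, up to 6 members called per test (filled up to 3 by p), and 3 genes on each side of the threshold; CLSTN2, ATP11B and genes named for their pairs within groups were chosen after their values were seen. The alternatives that leave out the shallowest library of each group, hold the oligodendrocyte marker sum constant or take the place of a library in the order of sample numbers as a block were also chosen after seeing the data.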

Additional observations from a re-analysis of the deposited data

Results flagged for a closer look

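In the 5 genes with the largest rho of each direction, each of 9 groups was examined for a library far from the others of its group (a gap to the next value that takes up most of the group's range, by Dixon's criterion). Of 90 such groups 9 held one, where values with a normal distribution would give about 1 in 20. CPM need not have that distribution, so 1 in 20 is not a chance rate for these values. All 9 were high values. TSPAN2 had 603 CPM in 16La replicate 5, with 228 as the next value of that group. DDRGK1 had 85.9 CPM in 8L replicate 2 (next 61.4), and OLFML2A had 292 CPM in the same library (next 126). CBX6 had 75.6 CPM in 16La replicate 2 (next 30.2), the library with the fewest recovered reads. GREB1L had 85.6 CPM in 12La replicate 3 (next 34.8) and PTPN13 35.4 CPM in 14La replicate 1 (next 8.95). NFE2L2 had 3 such values, 143 CPM in 8L replicate 3 (next 56.7), 140 CPM in 10Lv replicate 3 (next 54.3) and 96.4 CPM in 16Lv replicate 5 (next 56.5). The libraries 12La replicate 3, 8L replicate 3 and 10Lv replicate 3 are the shallowest of their groups. Without each library in turn, rho of TSPAN2 ran from -0.71 to -0.67, that of CBX6 from -0.57 to -0.47 and that of NFE2L2 from 0.39 to 0.47.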

How the results depend on the processing

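The 7 rising genes became 16 with TMM-scaled CPM, 19 and 4 at rho thresholds of 0.30 and 0.40, 13 from a mean of 10 CPM and 16 without the 6 shallowest libraries. They became 12, 13, 13, 11, 24 and 24 without the groups 16La, 14La, 10La, 12Lv, 14Lv and 16Lv, 22 without the shallowest library of each group (7 shared) and 16 with the oligodendrocyte marker sum held constant. The 55 falling genes became 142 and 19 at 0.30 and 0.40, and 104, 94 and 83 without 14La, 12La and 8L. Without the shallowest library of each group they were 2.68% of eligible genes, against 1.43% with all libraries (43 shared). The cut of 0.35 was kept where libraries or groups were left out, and it is easier to pass with fewer libraries. Shuffles were not repeated for these runs, and the causes were not tested. Leaving out 1 library gave 5 to 12 rising genes, with 11 without 16La replicate 2 and 12 without 16Lv replicate 2, and 44 to 76 falling genes. For the 5 leading genes of each direction rho was looked at in 59 alternatives, 53 of which left out 1 library. Its sign held in all of these, at 0.346 or more in size. The alternatives without a whole group were not among them, and rho is the value that chose these genes. In the CPM table the members called for hours and for leaving the lines stayed at 0 in every alternative run, leaving out each library included. The main fits called 0 and 1 of all 8268 genes for these, so the 0 is not read as a trait of the members. For the slope on step in the count table limma-voom called 1 member and all others 0; without a filter 63 genes were called, none a member. The labels pair no birds between groups, but the sample numbers give each library a place in its group. The shallowest library was at place 3 in every group but 16La. In 16La the last number was put first so that its shallowest library took place 3 too. The values by place that follow use this order. Deviations from the group means had a median r of 0.051 between libraries of the same place (25 of 200 pairs over 0.1). Between different places it was -0.01 (13 of 1000 pairs over 0.1). At place 3 the 36 pairs ran from 0.0341 to 0.125. Pairs of the same place thus passed 0.1 more often. What a place stands for is not given by the labels, and the main fits left place out. With place as a replicate block 12 genes were rising (7 shared) and 99 falling (55 shared). With that block 0 members were called for hours, for leaving the lines or, in the count table, for the slope on step. The main fits called 0 of 8268, 1 of 8268 and 0 of 826 genes for these 3 contrasts, so this is not read as a trait of the members either. Depth limits the count table to 826 genes tested.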

Other observations

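Some lists of genes without a rising or falling member, or with 1, leaned to one sign of rho with step; these are values of the contrast that chose the members, set beside 61.8% negative over all eligible genes, and 52.1% with TMM scaling. Of 70 eligible genes of oxidative phosphorylation encoded in the nucleus, 60 had a negative rho (median -0.0959), and 48 had one with TMM scaling (median -0.0493). Of 22 neuropeptides and processing enzymes 6 had a negative rho under both scalings, with a median of 0.123 and of 0.191 with TMM scaling. All 4 eligible genes of the brain extracellular matrix had a negative rho under both (median -0.195 and -0.171). Of 69 cytosolic ribosomal proteins 34 had a negative rho, and 15 had one with TMM scaling. As limma called 0 of 8268 genes for hours of light in the CPM table, none of these was called either.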
